A study of Mus musculus with 6 samples.

Results

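The genes described here encode the receptors for the monoamines (serotonin, noradrenaline and dopamine) and for acetylcholine, in the spinal cord of adult mice with and without Sox2 in astrocytes. Members were chosen by name: every protein-coding gene of the deposited count table whose mouse symbol marks it as a serotonin (Htr), alpha- or beta-adrenergic (Adra, Adrb), dopamine (Drd), muscarinic (Chrm) or alpha or beta nicotinic (Chrna, Chrnb) receptor gene. This gave 46 of 35275 genes in the table (21397 of them protein-coding). Of the 46, 41 had at least 30 reads summed over all libraries, namely 13 of 14 serotonin, 6 of 6 alpha-adrenergic, 3 of 3 beta-adrenergic, 4 of 5 dopamine, 5 of 5 muscarinic and 10 of 13 nicotinic genes. The others were Chrna9 with 0 reads, Chrna10 with 2, Htr3b with 11, Drd3 with 12 and Chrnb3 with 23.

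Sox2 encodes a transcription factor of neural stem cells that adult astrocytes also express, and the study compared mice with and without it in astrocytes. Whole spinal cord of C57BL/6 mice was sequenced as poly(A) RNA, with 3 libraries from Sox2 conditional knockout (Sox2 cKO) mice, labelled mGfap-Cre:Sox2fl/fl, and 3 from control (Ctrl) mice. The sample labels give the Ctrl genotype as mGfap-Cre:Sox2+/+, the series' design names mGfap-Cre or Sox2fl/fl animals, and the study's methods name Sox2fl/fl littermates, so whether the controls carried Cre cannot be settled here. Age is P90 in the labels and P80 in the protocol. Cre was driven by mouse Gfap sequences and so acts in Gfap-expressing cells, and each library came from 1 mouse, with 2 females and 1 male a group per the methods (the sex of each library was not used). Libraries are called by their column numbers, 2, 4 and 6 for Ctrl and 1, 3 and 5 for Sox2 cKO, which are names only.

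Monoamines reach the cord in axons that descend from the brainstem, from serotonergic raphe neurons, noradrenergic locus coeruleus neurons and dopaminergic hypothalamic neurons, while most spinal acetylcholine is made locally by motor neurons and cholinergic interneurons. All the receptors except the nicotinic family and Htr3 couple to G proteins. Gq-coupled members raise calcium through phospholipase C, Gs-coupled members raise cyclic AMP and Gi-coupled members lower it. Nicotinic and Htr3 receptors are ion channels of 5 subunits that transmitter opens directly.

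The deposited counts summed to 21507911 to 28392184 per library, and the receptor genes together took 0.0478% to 0.0560% of them. Sox2 itself was at 19.9, 14.8 and 29.5 CPM (counts scaled to library size, with TMM factors) in Ctrl libraries 2, 4 and 6 and at 3.16, 2.69 and 2.98 in Sox2 cKO libraries 1, 3 and 5, with a log2 fold change of −2.86 ± 0.24 (SE, n = 3 and 3, adjusted p = 0.00096 by edgeR's quasi-likelihood test). Ctrl library 2 stood apart from its group: over all genes its counts differed less from Sox2 cKO library 5 (chi-square per degree of freedom 11.4) than from Ctrl libraries 4 and 6 (26.5 and 30.9). Dorsal root ganglion markers, which a cord dissection can include, were uneven. Scn10a, a sodium channel of sensory neurons, stood at 3.95 CPM in Ctrl library 4 and 1.66 in Sox2 cKO library 5 and at 0.136 or less in the other 4. Of 7 astrocyte markers 6 were called, all lower, with 7 of 7 log2 fold changes below 0, at a summed 6143 to 8203 CPM in Ctrl and 4111 to 4323 in Sox2 cKO. Of 4 oligodendrocyte precursor markers 3 were called, all lower, with 4 of 4 below 0, at 144 to 166 and 89.3 to 127 CPM. Over all genes 24.6% were called. With a trend on gene length removed (described below), 3 of the 7 astrocyte and 1 of the 4 precursor markers were called. Without Ctrl library 4 these counts were 1 and 0, and without Sox2 cKO library 1 they were 0 and 0. In each of these 2 fits 6 and 3 were at an unadjusted p under 0.05 (edgeR). Of 8 neuron markers 0 were called by edgeR (2 at an unadjusted p under 0.05 and 2 by DESeq2, all higher), at 3140 to 3998 CPM in Ctrl and 3836 to 4289 in Sox2 cKO. Their log2 fold change was below 0 for 5 of 8, with a median of −0.02. Snap25, the largest part of the sum, was at 2577, 1921 and 1863 CPM in Ctrl and 2610, 2838 and 2676 in Sox2 cKO. In bulk tissue fewer cells of a type and less RNA per cell cannot be told apart. The cord's Hox genes were present at a summed 389 to 440 CPM, and 4 forebrain markers at 2.80 to 4.93 CPM. Hoxd10 was at 0 reads, but an exon of Gm28309, also at 0, overlaps it on the same strand. The 0 may therefore reflect how shared reads were counted, which is not known.

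Of the genes whose reads fell, Chrm2, Chrna4 and Chrnb2 have a promoter in the RefSeq table (GRCm38.p6), and the 250 bases before the RefSeq start are shown because these members were called lower. For Chrna4 that start lies inside the GENCODE gene given with its values, which begins further upstream. Capitals mark CAAAG or its complement CTTTG, the core that the study names for SOX2-bound sites. Chrm2 at chr6:36387834-36388083 on the plus strand, Chrna4 at chr2:181039178-181039427 on the minus strand and Chrnb2 at chr3:89764633-89764882 on the minus strand read:
Chrm2: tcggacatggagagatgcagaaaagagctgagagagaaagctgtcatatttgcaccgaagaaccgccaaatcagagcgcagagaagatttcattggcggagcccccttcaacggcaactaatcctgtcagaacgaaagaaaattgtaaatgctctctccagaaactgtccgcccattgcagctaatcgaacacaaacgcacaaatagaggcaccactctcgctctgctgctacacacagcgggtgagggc
Chrna4: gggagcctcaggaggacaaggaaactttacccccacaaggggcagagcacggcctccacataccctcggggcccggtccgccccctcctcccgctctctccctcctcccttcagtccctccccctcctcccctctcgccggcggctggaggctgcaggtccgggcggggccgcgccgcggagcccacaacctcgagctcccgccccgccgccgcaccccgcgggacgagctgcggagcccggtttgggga
Chrnb2: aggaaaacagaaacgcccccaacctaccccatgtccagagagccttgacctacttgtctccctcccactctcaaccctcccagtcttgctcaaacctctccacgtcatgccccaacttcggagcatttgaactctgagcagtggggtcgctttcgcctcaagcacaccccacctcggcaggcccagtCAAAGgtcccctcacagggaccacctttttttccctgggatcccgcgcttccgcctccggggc
CAAAG, searched on both strands, occurred in 48.6% of all 32851 promoter windows of this length, and in 12 of the 36 windows available for 31 of the members. Among these 3 genes it occurred once, in Chrnb2. The GC content of the windows was 50.0% for Chrm2, 74.4% for Chrna4 and 59.6% for Chrnb2, beside a median of 61.0% for the receptor windows and 52.4% for all windows. A match is a description of the letters only.

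The study's list of strongest SOX2-bound sites, called from adult cerebral cortex and thus from another tissue, names 2 receptor genes as nearest genes. They are shown because they are the members for which the study's own list gives a site sequence. Each is printed 5′ to 3′ on the strand given, with the motif match in capitals and 10 flanking bases on either side, and coordinates (mm10) are those of the bound site:
Adra2a, chr19:54180697-54181377, plus strand: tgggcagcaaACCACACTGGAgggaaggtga
Htr6, chr4:139024396-139024709, plus strand: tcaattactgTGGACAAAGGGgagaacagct
Htr6, chr4:139038067-139038396, minus strand: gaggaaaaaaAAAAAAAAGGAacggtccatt
Htr6, chr4:139054549-139054855, minus strand: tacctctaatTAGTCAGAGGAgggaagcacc
The Adra2a site lies 131715 bases from the annotated gene, and the Htr6 sites lie 36399, 22712 and 6253 bases from it. Of these 4 matches only the first Htr6 match holds CAAAG. Neither gene passed the test in the spinal cord, with log2 fold changes of −0.08 ± 0.08 for Adra2a and −0.24 ± 0.20 for Htr6 (SE, adjusted p = 0.50 and 0.41, edgeR).

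Levels between genes were compared per length, as the deposited FPKM (counts divided by gene length and by library size). Htr2c, the serotonin receptor that drives persistent inward current in motor neurons, was highest, with a mean of 17.3 FPKM over the 6 libraries (14.1 to 20.4). Adra2a, the inhibitory adrenergic receptor targeted by clonidine, followed at 13.7, the muscarinic autoreceptor gene Chrm2 at 13.5, the nicotinic subunit genes Chrna4 at 12.1 and Chrnb2 at 10.4, and Htr7, a Gs-coupled serotonin receptor, at 8.63. Neighbours in this order overlapped in their 6 libraries with 1 exception: every library was higher for Htr7 than for the next gene, Adra1b (mean 6.46). Drd2 at 6.23, Chrna7 at 5.39 and Adra1a at 4.34 came next, and 23 members had a mean of 1 FPKM or more. The lowest reported were Adra2b at 0.129, Chrna6 at 0.126 and Htr2b at 0.118 FPKM.

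**Figure D1:**
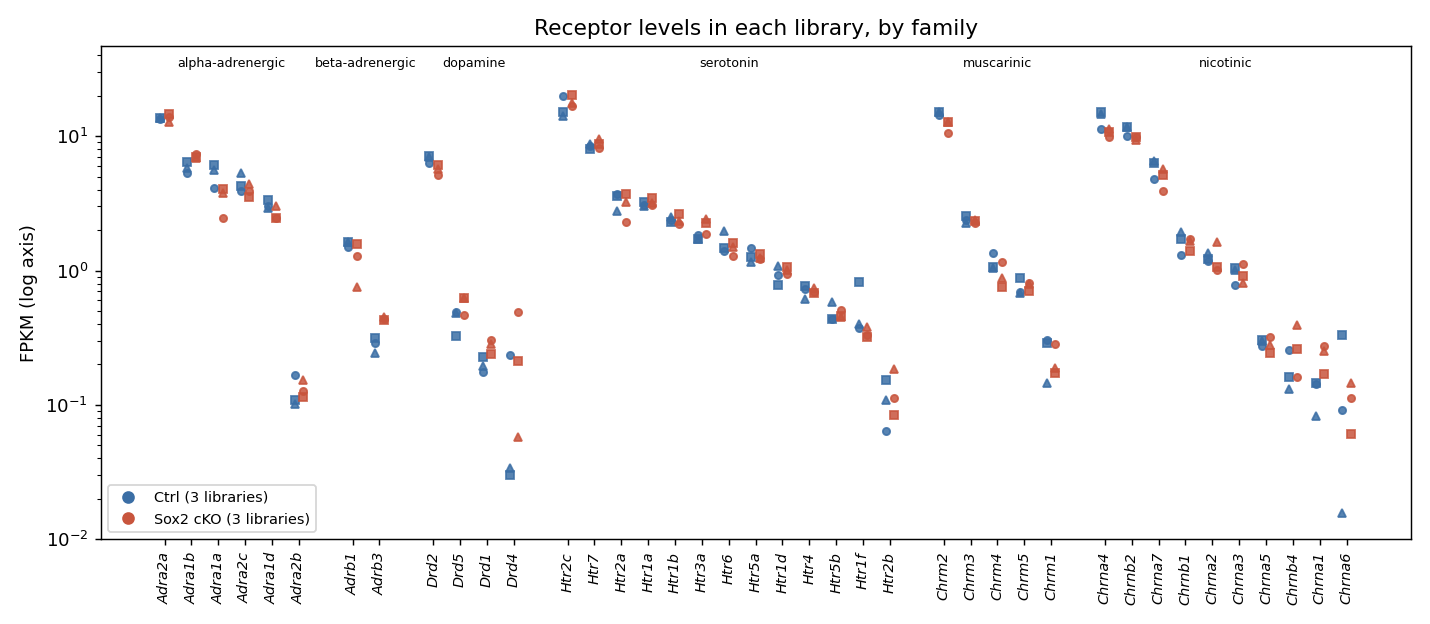
FPKM on a log axis of 40 of the 41 receptor genes with 30 or more reads, grouped by family and ordered by mean level, with each library as a point (Ctrl blue, Sox2 cKO red, 3 libraries each). Htr2c, Adra2a, Chrm2, Chrna4 and Chrnb2 lead with means of 17.3 to 10.4 FPKM, and most families span over 10-fold.

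Loss of Sox2 went with lower reads of 4 receptor genes: Adra1a, Chrm2, Chrna4 and Chrnb2. The 3 receptor genes with too few reads to test were Drd4, Chrna6 and Htr2b, which left 38. Of the 38, 4 passed an adjusted p of 0.05 (10.5%), all lower. As higher, 0 passed by edgeR or DESeq2, and 1 was at an unadjusted p under 0.05 by edgeR. Over all 16137 genes tested, 24.6% passed and 12.4% passed as lower, so the share of receptor genes called lower was near that of the whole table. The log2 fold change was below 0 for 28 of the 38, with a median of −0.12, against 48.0% below 0 and a median of 0.02 over all genes. Groups did not overlap in CPM for 10 members (26.3%), against 44.7% of all genes, and 7 of them were lower in Sox2 cKO (18.4%, against 22.1%). At an unadjusted p of 0.05, 6 members passed, Drd2 and Chrna1 beside the 4. Calls among the members were uneven by level: the 4 were among the 23 of 1 FPKM or more, and 0 of the 15 tested below that were called by edgeR, 1 of them at an unadjusted p under 0.05 and 0 by DESeq2. The 95% interval of the log2 fold change had a median half-width of 0.30 in the first set and 0.66 in the second. Sox2 cKO library 1 had the lowest CPM of the 6 for 17 of the 38 members, and for 27.4% of all genes.

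**Figure D2:**
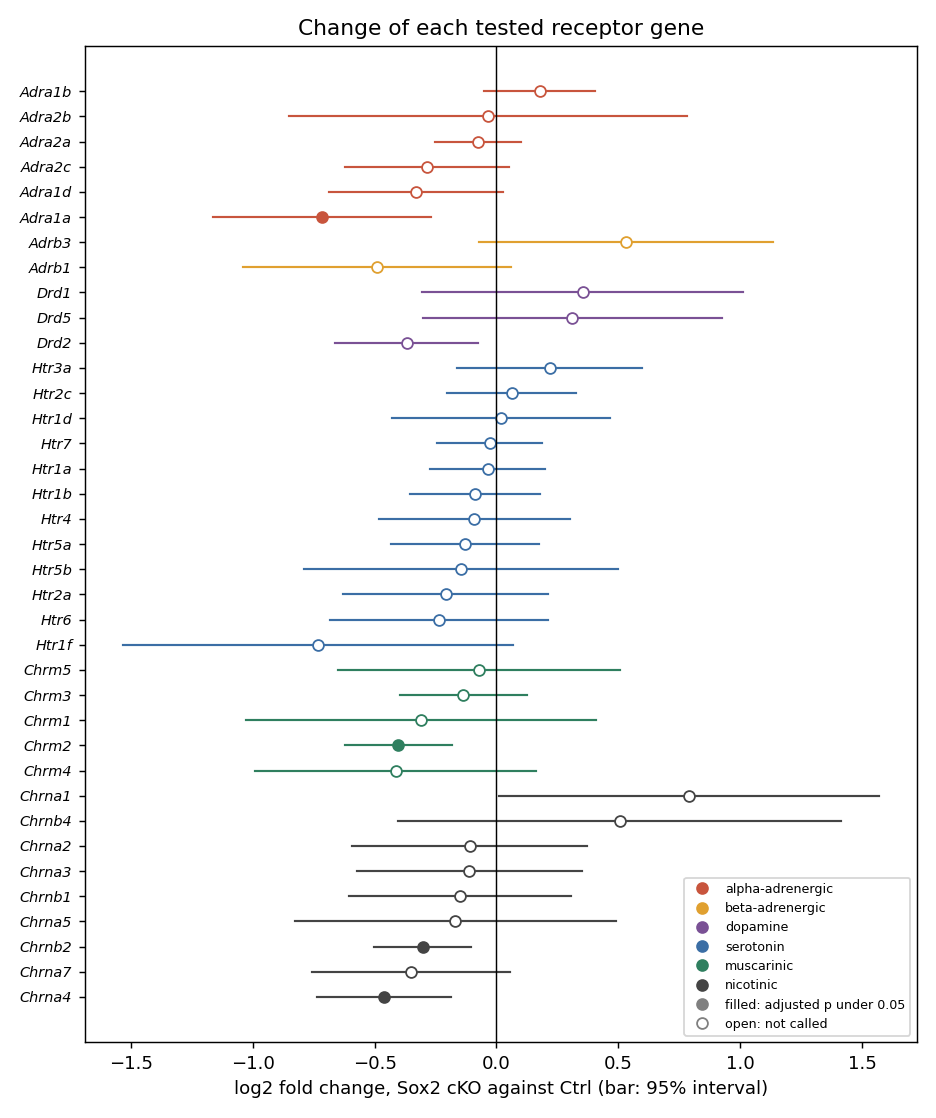
Log2 fold change of 37 of the 38 tested receptor genes (Sox2 cKO against Ctrl, 3 libraries each) with its 95% interval from the edgeR fit, by family. Filled points passed an adjusted p of 0.05 (Adra1a, Chrm2, Chrna4 and Chrnb2), and 28 of those shown lie left of 0.

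Of the alpha1-adrenergic receptors, which couple to Gq and carry the excitatory action of noradrenaline, Adra1a fell, while the estimate for Adra1b lay above 0 and did not pass. Adra1a (ENSMUSG00000045875, chr14:66635251-66771168 on mm10, plus strand) was at 17.9, 27.0 and 25.4 CPM in Ctrl and 9.97, 16.7 and 15.9 in Sox2 cKO. The groups did not overlap, with Ctrl library 2 and Sox2 cKO library 1 the lowest of their groups. The log2 fold change was −0.72 ± 0.20 (SE, adjusted p = 0.030, edgeR), a fall to 0.608 of the Ctrl level with a 95% interval of 0.446 to 0.829. Adra1b was at 17.7, 22.1 and 20.7 CPM in Ctrl and 23.3, 22.7 and 22.5 in Sox2 cKO. Its groups did not overlap, in the other direction, yet the log2 fold change of 0.18 ± 0.10 (SE) did not pass (adjusted p = 0.22, edgeR). Per length, Adra1a ran at 0.786, 0.950 and 0.956 of Adra1b in Ctrl libraries and at 0.333, 0.575 and 0.549 in Sox2 cKO libraries. Adra1b thus made up 41.2% ± 1.1 (SD, n = 3) of the alpha1 FPKM in Ctrl and 54.1% ± 5.3 in Sox2 cKO. For such single values an exact permutation test of 3 against 3 cannot go below 0.1, so none is given. Adra1d was at 5.79, 6.65 and 5.89 CPM in Ctrl and 4.39, 4.50 and 5.67 in Sox2 cKO, without overlap by a narrow gap, with a log2 fold change of −0.33 ± 0.16 (SE, adjusted p = 0.15, edgeR).

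The alpha2 receptors couple to Gi and act as autoreceptors on noradrenergic terminals and as inhibitory receptors on dorsal horn neurons. Adra2a, the family's most abundant gene, was at 51.3, 54.4 and 54.7 CPM in Ctrl and 50.0, 54.0 and 48.0 in Sox2 cKO, with overlapping groups and a 95% interval of −0.25 to 0.10 on the log2 scale. Adra2c had a log2 fold change of −0.29 ± 0.15 (SE, adjusted p = 0.19) and Adra2b, at about 0.5 CPM, of −0.03 ± 0.37 (adjusted p = 0.96, both edgeR). The beta-adrenergic receptors, which raise cyclic AMP, were low. Adrb1, best known in heart, was at 3.72, 4.24 and 4.30 CPM in Ctrl and 3.03, 3.82 and 1.85 in Sox2 cKO, with overlap and a log2 fold change of −0.49 ± 0.25 (SE, adjusted p = 0.17, edgeR). Adrb3, best known in fat, was at 0.808, 0.915 and 0.724 CPM in Ctrl and 1.14, 1.16 and 1.25 in Sox2 cKO. These groups did not overlap, and the log2 fold change of 0.53 ± 0.27 did not pass (SE, adjusted p = 0.17, edgeR).

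Drd2, the Gi-coupled dopamine receptor that antipsychotic drugs block, made up most of the dopamine receptor reads. It was at 9.78, 11.6 and 11.5 CPM in Ctrl and 7.55, 9.14 and 8.69 in Sox2 cKO, without overlap between the groups. The log2 fold change of −0.37 ± 0.13 (SE) missed the threshold (adjusted p = 0.065, unadjusted p = 0.019, edgeR). Its share of the dopamine receptor FPKM was 90.2% ± 2.6 in Ctrl and 83.6% ± 2.8 in Sox2 cKO (SD, n = 3), without overlap. The Gs-coupled Drd1 and Drd5 had positive log2 fold changes, 0.35 ± 0.30 and 0.31 ± 0.28 (SE, adjusted p = 0.40 and 0.43, edgeR), at 1.74 CPM or less in every library.

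Of the muscarinic receptors, Chrm2 fell. It encodes the Gi-coupled receptor of cholinergic synapses on motor neurons and of cholinergic terminals. Chrm2 (ENSMUSG00000045613, chr6:36388084-36528414, plus strand) was at 82.8, 89.8 and 90.8 CPM in Ctrl and 56.7, 70.3 and 72.1 in Sox2 cKO. The groups did not overlap, and the 3 Ctrl libraries lay closer together than the 3 Sox2 cKO libraries. The log2 fold change was −0.40 ± 0.10 (SE, adjusted p = 0.020, edgeR), or 0.757 of the Ctrl level (95% interval 0.650 to 0.881). An exon of 9330158H04Rik, on the opposite strand, overlaps Chrm2. The strand setting of the counting is not stated, so how reads of the shared stretch were counted is not known. 9330158H04Rik had 560 reads in all and a log2 fold change of 0.02 ± 0.17 (SE, adjusted p = 0.95, edgeR). Chrm3, a Gq-coupled receptor, was at 10.4, 11.4 and 10.4 CPM in Ctrl and 9.27, 9.82 and 10.2 in Sox2 cKO, just without overlap, with a log2 fold change of −0.14 ± 0.12 (SE, adjusted p = 0.41, edgeR). Chrm4, Chrm1 and Chrm5 overlapped, at −0.41, −0.31 and −0.07. Their summed level with Chrm2 and Chrm3 was 103 ± 4 CPM in Ctrl and 79.9 ± 8.4 in Sox2 cKO (SD, n = 3), most of it Chrm2.

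Chrna4 and Chrnb2, whose proteins assemble into the main high-affinity nicotine receptor of the central nervous system, both fell. Chrna4 (ENSMUSG00000027577, chr2:181018380-181043546, minus strand) was at 52.2, 71.8 and 70.3 CPM in Ctrl and 42.7, 47.7 and 50.7 in Sox2 cKO. Ctrl library 2 lay just above the highest Sox2 cKO library and well below the other Ctrl libraries. The log2 fold change was −0.46 ± 0.12 (SE, adjusted p = 0.026, edgeR), or 0.726 of Ctrl (95% interval 0.601 to 0.878). Chrnb2 (ENSMUSG00000027950, chr3:89746195-89764632, minus strand) was at 54.8, 65.1 and 66.8 CPM in Ctrl and 49.9, 51.2 and 50.3 in Sox2 cKO. It showed the same order, with Ctrl library 2 lowest of its group, and a log2 fold change of −0.30 ± 0.09 (SE, adjusted p = 0.036, edgeR), or 0.811 of Ctrl (0.707 to 0.931). With upper quartile scaling it lost its call (adjusted p = 0.053, edgeR). Exons of Adar, on the opposite strand, overlap Chrnb2, and Adar had 21301 reads and a log2 fold change of −0.23 ± 0.08 (SE, adjusted p = 0.053, edgeR). How reads of the shared stretch were counted is not known, so the overlap could affect the counted reads of Chrnb2. Per length, Chrna4 ran at 1.22 ± 0.09 times Chrnb2 in Ctrl and 1.10 ± 0.09 times in Sox2 cKO (SD, n = 3), with overlap, and together they made 70.4% ± 0.5 and 68.0% ± 2.2 of the nicotinic FPKM.

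The other nicotinic genes were not called. Chrna7, which forms a receptor of 1 subunit type, had overlapping groups and a log2 fold change of −0.35 ± 0.18 (SE, adjusted p = 0.18, edgeR). The gene cluster on chromosome 9 of Chrna5, Chrna3 and Chrnb4, spaced 2331 and 1591 bases apart, which encodes the ganglionic receptor, had log2 fold changes of −0.17, −0.11 and 0.51, each with overlap. Chrna2, a gene of inhibitory spinal interneurons, stood at −0.11 ± 0.22 (SE, adjusted p = 0.74, edgeR). Chrna1, a subunit of the muscle receptor, was at 0.628, 0.665 and 0.386 CPM in Ctrl and 1.14, 0.716 and 1.10 in Sox2 cKO. The groups did not overlap, and the log2 fold change of 0.79 ± 0.35 did not pass (SE, adjusted p = 0.12, unadjusted p = 0.048, edgeR). Skeletal muscle markers also varied, at a summed 5.41 to 14.0 CPM in Ctrl and 4.88 to 76.1 in Sox2 cKO. Of the 6 tested genes of that list, 0 had a log2 fold change below 0, and the median was 2.09. At an unadjusted p under 0.05 there were 5, all higher, and 0 without Sox2 cKO library 5 (edgeR). Of the 6, 1 was called, as higher: Mylpf, at 5.53, 1.74 and 14.8 CPM in Sox2 cKO libraries 1, 3 and 5. Chrnd was at 0 reads, and the part of muscle RNA in the Chrna1 values was not tested. Chrna6 had 6, 24 and 1 reads in Ctrl and 7, 5 and 11 in Sox2 cKO, highest in the 2 libraries with most Scn10a. Htr1f was at 2.16 CPM in Ctrl library 4 against 0.785 to 1.06 in the other 5, and the part of ganglion RNA in these values was not tested.

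**Figure D3:**
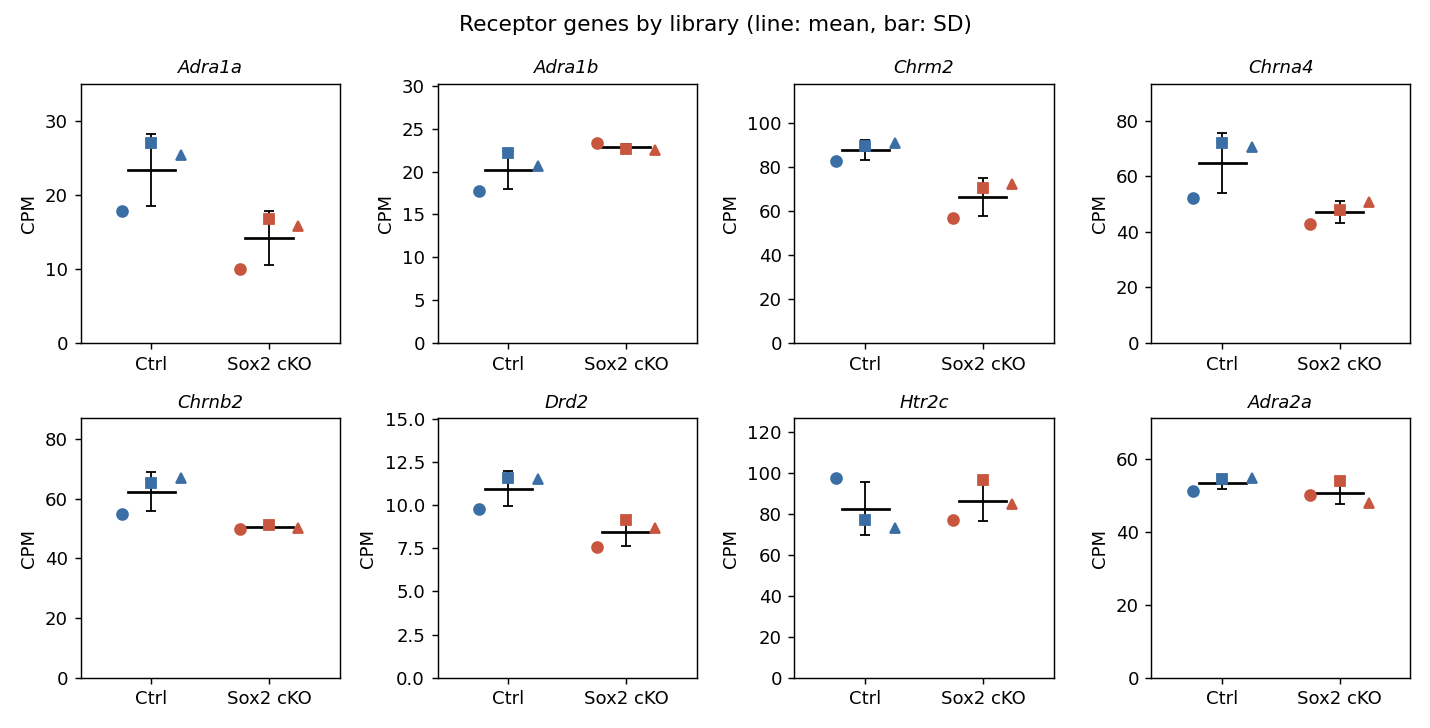
CPM of 8 receptor genes in each library (Ctrl blue, Sox2 cKO red), with the mean as a line and the SD as a bar, axes from 0. Adra1a, Chrm2, Chrna4, Chrnb2 and Drd2 are lower in every Sox2 cKO library, Adra1b is higher, and Htr2c and Adra2a overlap.

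The serotonin receptors held no called gene. Of 12 tested, 0 passed by edgeR (0 by DESeq2 and 0 at an unadjusted p of 0.05), against 24.6% of all genes by edgeR. Groups did not overlap for 0 of the 12, against 44.7% of all genes. The summed level of the family was 170 ± 12 CPM in Ctrl and 169 ± 17 in Sox2 cKO (SD, n = 3). Htr2c was at 97.3, 77.1 and 73.1 CPM in Ctrl and 77.0, 96.5 and 84.8 in Sox2 cKO, so libraries of both groups reached the highest values. Its log2 fold change was 0.06 ± 0.12 (SE, adjusted p = 0.73, edgeR), with a 95% interval of −0.20 to 0.33. The intervals of Htr7, Htr1a and Htr1b, a Gs-coupled receptor and 2 Gi-coupled receptors of which Htr1b is a terminal autoreceptor, were −0.24 to 0.19, −0.27 to 0.20 and −0.35 to 0.18. The largest log2 fold changes were those of Htr1f, −0.73 ± 0.36 (SE, adjusted p = 0.16, edgeR), and Htr6, −0.24. Htr3a, the ion channel gene, stood at 0.22 ± 0.17 (SE, adjusted p = 0.36, edgeR). By coupling, the log2 fold change was below 0 for 11 of 12 Gi, 6 of 8 Gq, 4 of 8 Gs and 7 of 10 channel genes, with 1, 1, 0 and 2 called, against 48.0% below 0 and 24.6% called over all genes. With the length trend removed (described next), the count below 0 was 8 of 12 Gi, 6 of 8 Gq, 3 of 8 Gs and 7 of 10 channel genes.

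Changes in these libraries varied with gene length: over all genes tested, the median log2 fold change was 0.27 in the 4035 shortest (up to 1935 bases) and −0.22 in the 4034 longest (4460 bases or more). The lower bound of RNA integrity given with the samples is below that in the study's methods, and no value per library is given. The part of RNA integrity in the length trend was not tested. A trend of fold change on length was therefore removed over all genes in a further fit. With the trend removed, 1 of the 38 receptor genes was called, Drd2, at a log2 fold change of −0.61 (adjusted p = 0.032, edgeR), against 13.1% of all genes. Adra1a then stood at −0.64 (adjusted p = 0.052), Chrna4 at −0.35 (0.053), Chrm2 at −0.21 (0.075) and Chrnb2 at −0.13 (0.23). The 4 called genes kept their direction but not their call. They are longer (4282 to 5676 bases) than the median of all tested genes (3060), whereas Drd2 has 1549. The number of calls, over all genes and among the receptor genes, changed when a single library was left out. Whether the library itself or the smaller group accounts for this was not tested. Without Ctrl library 4, Ctrl library 6 or Sox2 cKO library 1, 0.159%, 6.54% and 0.0485% of all genes were called by edgeR and 0 receptor genes (4, 6 and 4 at an unadjusted p under 0.05). In these 3 fits the log2 fold change of Adra1a was −0.60, −0.66 and −0.52, that of Chrm2 −0.39, −0.38 and −0.30, that of Chrna4 −0.38, −0.40 and −0.40 and that of Chrnb2 −0.27, −0.25 and −0.29. Without Sox2 cKO library 3, 8.31% of all genes and Adra1a alone of the receptor genes were called, and without Sox2 cKO library 5, 16.3% and 3. Without Ctrl library 2, 36.9% of all genes and 6 receptor genes were called, with Chrna7 and Drd2 added. Without both libraries that held most Scn10a, 0.229% of all genes and 0 of the receptor genes (3 at an unadjusted p under 0.05) were called by edgeR.

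**Figure D4:**
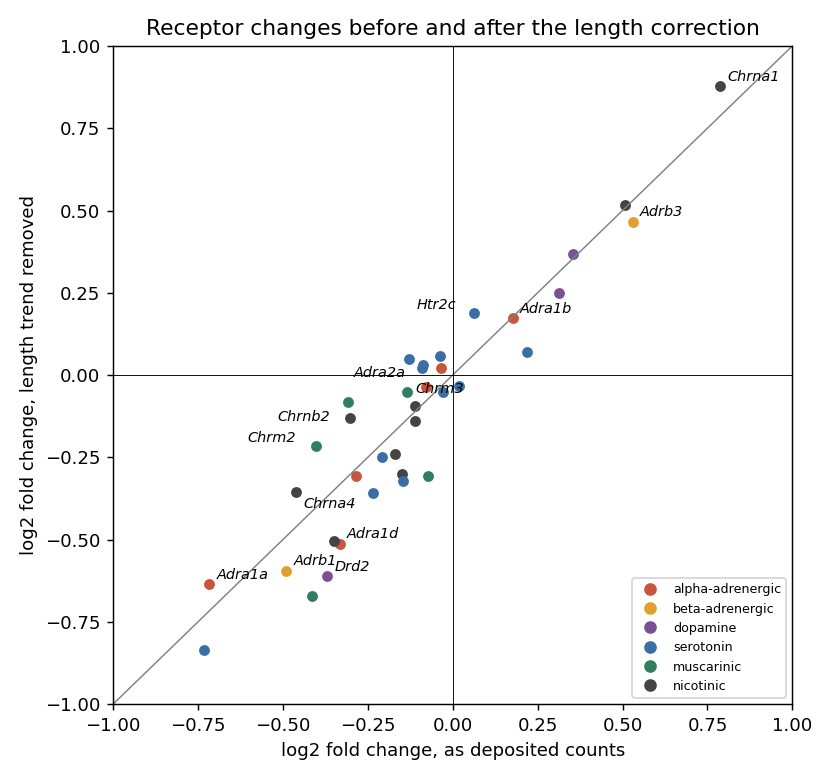
Log2 fold change of 37 of the 38 tested receptor genes from the counts (horizontal) and after removal of the length trend (vertical), coloured by family with the line of equal values. Chrm2, Chrna4 and Chrnb2 lie above the line, nearer to 0 after the correction, and Drd2 and Adra1d lie below it.

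Around the receptors, the genes that make, carry and break down the transmitters were mostly not called. Of 16 tested, 2 passed, both lower (median −0.12), against 24.6% of all genes. Slc18a3, the vesicular acetylcholine transporter, was at 67.4, 90.8 and 94.5 CPM in Ctrl and 61.1, 55.5 and 67.6 in Sox2 cKO, which overlapped at Ctrl library 2, with a log2 fold change of −0.46 ± 0.13 (SE, adjusted p = 0.029, edgeR). It was called with the length trend removed too (adjusted p = 0.029). Maoa, a monoamine oxidase, stood at −0.25 ± 0.08 (SE, adjusted p = 0.040, edgeR), and lost its call with the trend removed (adjusted p = 0.094). Chat, the acetylcholine-synthesizing enzyme, was at 36.1, 31.8 and 31.9 CPM in Ctrl and 34.3, 29.6 and 29.8 in Sox2 cKO (log2 fold change −0.09 ± 0.10, SE, adjusted p = 0.51, edgeR). Of the 6 cholinergic and motor neuron markers only Slc18a3 was called. The transporters and enzymes of monoamine neuron cell bodies were near 0, with Dbh at 0.341 CPM or less and Slc6a4 at 0.136 or less.

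Genes whose products assemble or modulate nicotinic receptors changed in both directions. Of 12 tested, 6 were called, 3 lower and 3 higher, against 24.6% of all genes. Limma on FPKM called 3 at either pseudocount, and edgeR 0 without Ctrl library 4 or Sox2 cKO library 1 (6 at an unadjusted p under 0.05 in each), 3 without Ctrl library 6 or Sox2 cKO library 3 and 9 without Ctrl library 2. Lrp4, a receptor for agrin that astrocytes and muscle express, was at 37.1, 58.4 and 72.6 CPM in Ctrl and 23.6, 26.1 and 27.7 in Sox2 cKO (log2 fold change −1.12 ± 0.20, SE, adjusted p = 0.012, edgeR). Lynx1, a Ly6 protein that dampens nicotinic receptors, fell from 581, 508 and 706 CPM to 463, 291 and 316 (−0.75 ± 0.18, SE, adjusted p = 0.018, edgeR). Ric3, a nicotinic receptor chaperone, stood at −0.34 ± 0.08 (SE, adjusted p = 0.021, edgeR), and an exon of Tub overlaps it on the other strand. Those higher were Ly6h, another Ly6 modulator, at 48.8, 36.3 and 44.1 CPM in Ctrl and 81.0, 74.8 and 58.5 in Sox2 cKO (0.73 ± 0.14, SE, adjusted p = 0.013, edgeR). Ly6e rose by a similar amount (0.72 ± 0.14, adjusted p = 0.013), and Agrn, which clusters acetylcholine receptors at the neuromuscular junction, by 0.32 ± 0.10 (adjusted p = 0.048, both SE, edgeR). With the length trend removed, Lrp4, Lynx1, Ly6h, Ly6e and Agrn were called and Ric3 was not (adjusted p = 0.087).

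**Figure D5:**
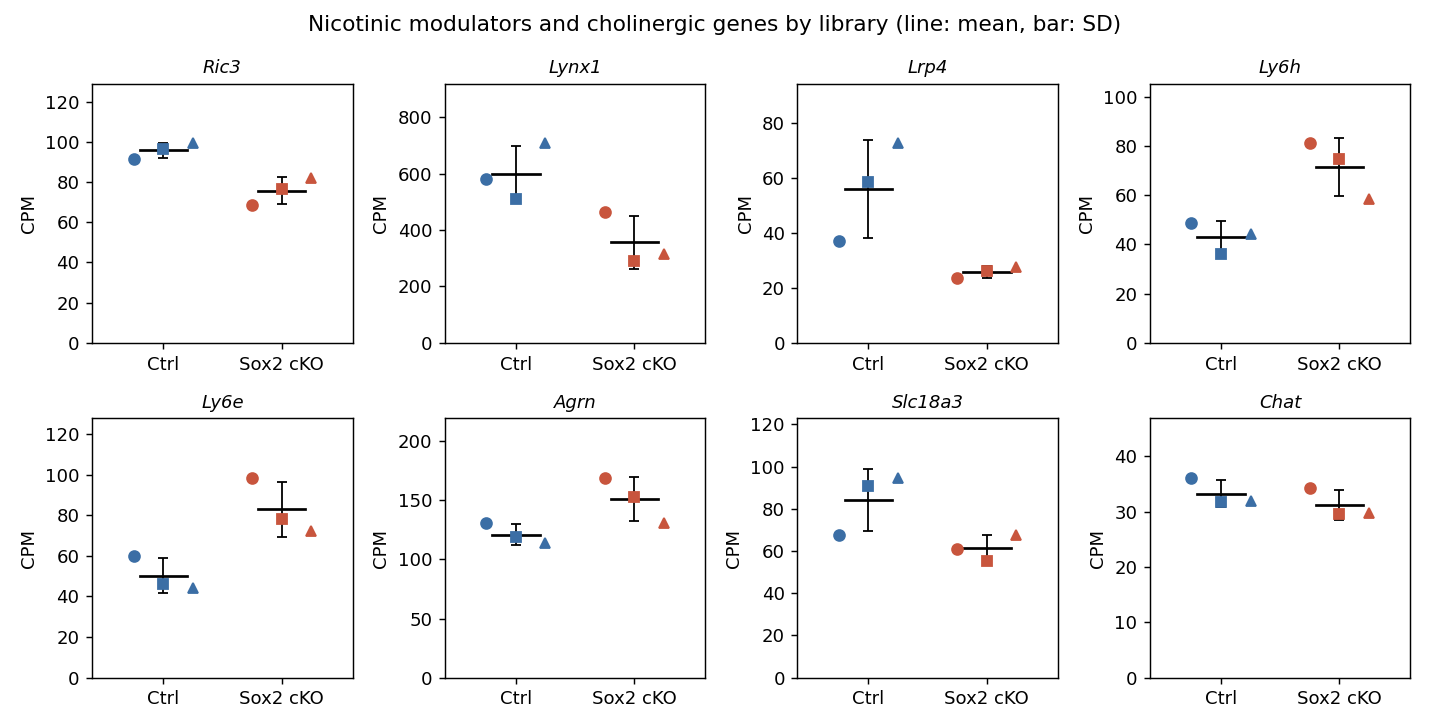
CPM in each library of 6 genes that modulate nicotinic receptors and of the cholinergic genes Slc18a3 and Chat, with mean and SD, axes from 0. Lrp4, Lynx1 and Ric3 are lower and Ly6h, Ly6e and Agrn higher in every Sox2 cKO library, and Slc18a3 and Chat overlap.

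Downstream of the G protein-coupled members, 12 of 29 genes for G proteins, their effectors and desensitizing proteins were called, 10 lower and 2 higher, with a median of −0.21, against 24.6% called and 12.4% called lower over all genes. The count depended on the setting: 15 with DESeq2, 8 (6 lower) with upper quartile scaling, 7 (5 lower) with the length trend removed and 3 (1 lower) with limma on FPKM at either pseudocount. Over all genes, upper quartile scaling called 24.6% and the length fit 13.1%, both of 16137 genes. The limma fits called 16.1% and 16.3% of 18517. DESeq2 called 17.7% of 24442, a set that includes the low genes that the edgeR filter drops. These shares are therefore not of the same genes: DESeq2 called 4336 and the main fit 3970. The count of the 29 was 0 without Ctrl library 4 or Sox2 cKO library 1 (11 and 12 at an unadjusted p under 0.05, edgeR). It was 2 without Ctrl library 6, 4 without Sox2 cKO library 3, 5 without Sox2 cKO library 5 and 17 without Ctrl library 2. The shares of all genes called in these fits are given above. Gnas, which encodes the Gs alpha subunit, was at 122, 86.3 and 84.9 CPM in Ctrl and 152, 171 and 147 in Sox2 cKO (log2 fold change 0.68 ± 0.14, SE, adjusted p = 0.013, edgeR). Arrb2, an arrestin that ends receptor signalling, was higher by 0.55 ± 0.11 (SE, adjusted p = 0.013, edgeR). The adenylyl cyclase genes Adcy9 and Adcy3 were lower, at −0.65 ± 0.17 and −0.44 ± 0.12 (SE, adjusted p = 0.023 and 0.028, edgeR), as was Gnai1, a Gi alpha subunit gene, at −0.40 ± 0.09 (adjusted p = 0.015). With the length trend removed, Gnas, Arrb2, Gnai1 and Adcy9 kept their calls (adjusted p = 0.019, 0.033, 0.019 and 0.045) and Adcy3 did not (0.10). Among other aminergic receptors, Hrh3, the Gi-coupled histamine receptor that limits transmitter release, was higher, at 8.78 ± 0.68 CPM in Ctrl and 11.6 ± 0.4 in Sox2 cKO (SD, n = 3, log2 fold change 0.40 ± 0.12, SE, adjusted p = 0.035, edgeR). Its call was lost with the trend removed (adjusted p = 0.083), and Hrh1 and Hrh2 did not pass (−0.25 and −0.45).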

How the data were processed

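Per the sources used here, the authors sequenced poly(A) RNA from a strand-marking kit as single ends, aligned it to mm10 with STAR 2.5 and counted with HTSeq 0.6.1. They deposited read counts and FPKM per gene. The strand setting of the counting is not given in the sources used here. Columns of the 2 tables carry no sample name. Their assignment, even numbers Ctrl and odd numbers Sox2 cKO, was given with the choice of members, and group means computed from the counts matched those in the study's gene table for 1999 of 1999 genes (relative tolerance 1e-04) and for 0 when exchanged. Gene names are from GENCODE M21 (34490 of 35275 matched). For 1 member values are not reported here, though counts over the members include it. Members and lists were chosen with earlier results of these data known. From the counts, edgeR 4.0.16 (R 4.3.3; low genes filtered, TMM, quasi-likelihood, Benjamini-Hochberg over all genes tested, threshold 0.05, no covariates) gave the main results. DESeq2 1.42.0, upper quartile scaling, other filters, a lowess length correction (span 0.3, offsets) and limma 3.58.1 on log2(FPKM + 1) and log2(FPKM + 0.1), for genes of mean FPKM 0.1 or more, were alternatives, as was leaving out each library. The fits were tested on simulated data. Each member called or without overlap, and the highest of each family, was given per library, with up to 4 called genes of each pathway list. Chat, Ric3, Agrn, Gnai1, Hrh1, Hrh2, Dbh, Slc6a4, Slc18a2, Ddc, Th, Scn10a and the pair of Mylpf and Chrna1 were named after their values were seen.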

Additional observations from a re-analysis of the deposited data

How the results depend on the processing

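No paired analysis was possible because the columns of the tables carry no replicate numbers that tie them to the labels. The number of receptor genes called, 4, was 0 in limma on log2(FPKM + 1) and on log2(FPKM + 0.1) (5 at an unadjusted p under 0.05 in each), 1 with the length trend removed, and 0 to 6 when 1 library was left out. The median log2 fold change of the members, −0.12, was −0.013 and −0.027 under the limma settings. That of all genes moved as well, from 0.018 in the main fit to 0.067 and 0.115 under the same settings. Of all genes, 3970 were called, 2109 with the length trend removed and 8 (Sox2 cKO library 1 omitted) to 6119 (Ctrl library 2 omitted) with 5 libraries. Groups did not overlap for 10 members (44.7% of all genes) and for 12 to 19 with 1 library left out (49.4% to 61.8% of all genes). Without Ctrl library 4 and Sox2 cKO library 5 together, a setting chosen after seeing the data, 0 receptor genes (3 at an unadjusted p under 0.05) and 37 of all genes were called and 17 of 38 members had groups without overlap, against 60.4% of all genes. Adra2a turned to 0.019 and 0.020 in these limma fits. Htr2c, at 0.06, ranged from −0.027 to 0.20 when 1 library was left out, below 0 without Ctrl library 6 (−0.015) or Sox2 cKO library 3 (−0.027). Upper quartile scaling called 1652 genes lower and 2313 higher, against 2008 and 1962, and limma 718 and 2267 (log2(FPKM + 1)) or 730 and 2282 (log2(FPKM + 0.1)). The cause of these shifts was not tested. DESeq2 called 4 receptor genes and upper quartile scaling 3, without Chrnb2. Over 13 named members and 14 alternatives, 142 values kept direction and side of the threshold, 33 lost the call, 2 gained it and 4 changed sign. All 33 losses were those of Adra1a, Chrm2, Chrna4 and Chrnb2, as the other named members had no call to lose. With 3 libraries a group, the 95% half-widths of tested members under 1 FPKM ran from 0.39 to 0.91 on the log2 scale.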
